A study of Mus musculus with 6 samples.

Results

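The extracellular adenosine pathway was followed here through 9 genes, chosen by symbol: Nt5e, Entpd1, Entpd5, Adora1, Adora2a, Adora2b, Ada, Adk and Slc29a1. Each had 1 row among the 56734 gene symbols of the count table. RNA was taken from 3 Ythdf2-KO and 3 WT samples of B16-OVA, a mouse melanoma line engineered to produce chicken ovalbumin, a model antigen. Both genotypes were cultured in the same serum-supplemented medium with no further treatment, and polyadenylated RNA was sequenced. The titles tag the Ythdf2-KO samples gY2 and the WT samples gNC, so the WT cells may have carried a control guide, and no label says whether either line is a single clone or whether replicates were separate cultures. P-values therefore measure the spread between these libraries, which may be technical. YTHDF2, the protein missing from the knockout by its label, binds the modified base N6-methyladenosine (m6A) in mRNAs and speeds the decay of many of them.

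Tumor cells and their neighbours release ATP, which enzymes on the cell surface cut down to adenosine. CD39, encoded by Entpd1, takes ATP and ADP to AMP, and CD73, encoded by Nt5e, takes AMP to adenosine. Adenosine then signals through 4 G protein-coupled receptors, encoded by Adora1, Adora2a, Adora2b and Adora3, is carried across the membrane by nucleoside transporters such as ENT1, and is removed by adenosine deaminase or adenosine kinase. In tumors, adenosine acting on the receptors encoded by Adora2a and Adora2b is known for dampening T cells and natural killer cells.

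The libraries held 55660473 to 69497273 counts, of which 3 counts equalled 0.0433 to 0.0540 counts-per-million (CPM, scaled with TMM factors). The targeted gene itself, Ythdf2, had 100.1, 100.5 and 104 CPM in Ythdf2-KO, against 124, 124 and 125 CPM in WT, a log2 fold change of -0.29 ± 0.026 (SE, n = 3 per genotype; quasi-likelihood test of edgeR, adjusted p = 4.08e-13 by Benjamini and Hochberg). Neither the edit in the gene nor the protein can be read from these counts. All 8 melanocyte markers were detected, with summed levels of 1410 to 1439 CPM in Ythdf2-KO and 240 to 243 CPM in WT. The 12 leukocyte markers summed to 0.923 to 2.71 CPM in Ythdf2-KO and 1.15 to 1.64 CPM in WT, and Ncr1 had no count in any library. Of the 8 endothelial and fibroblast markers, the collagen gene Col3a1 and the receptor gene Pdgfrb were abundant. The list summed to 5526 to 5645 CPM in Ythdf2-KO and 3800 to 3885 CPM in WT. Most of this was Col3a1, at means of 5064 CPM in Ythdf2-KO and 3508 CPM in WT. By the same test, Col3a1, Pdgfrb and Fap were higher and the endothelial gene Cdh5 lower (log2 fold change -0.55, edgeR adjusted p = 0.0134). Pecam1 did not pass, and the other 3 had too few counts to be tested. The part of these marker differences in the results was not tested. In bulk RNA, fewer cells of a type or state and less RNA per cell cannot be told apart.

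The 9 genes fell into 2 sets by level. The defining surface enzymes and every adenosine receptor among them, namely Nt5e, Entpd1, Adora1, Adora2a and Adora2b, had 0 to 15 counts per library in both genotypes, too few for the test across genes. The genes for adenosine uptake and intracellular removal, Slc29a1, Ada and Adk, and the nucleotidase gene Entpd5 were well expressed and were tested. Among the 19857 protein-coding symbols in the table, 34.5% likewise had too few counts to be tested. The 4 tested genes all passed an adjusted p under 0.05, 2 higher and 2 lower in Ythdf2-KO. That threshold was passed by 49.9% of the 17718 genes tested, 24.1% higher and 25.8% lower, so a call by itself says little about these genes. Their median log2 fold change was -0.042, against -0.0053 over all genes tested.

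**Figure D1:**
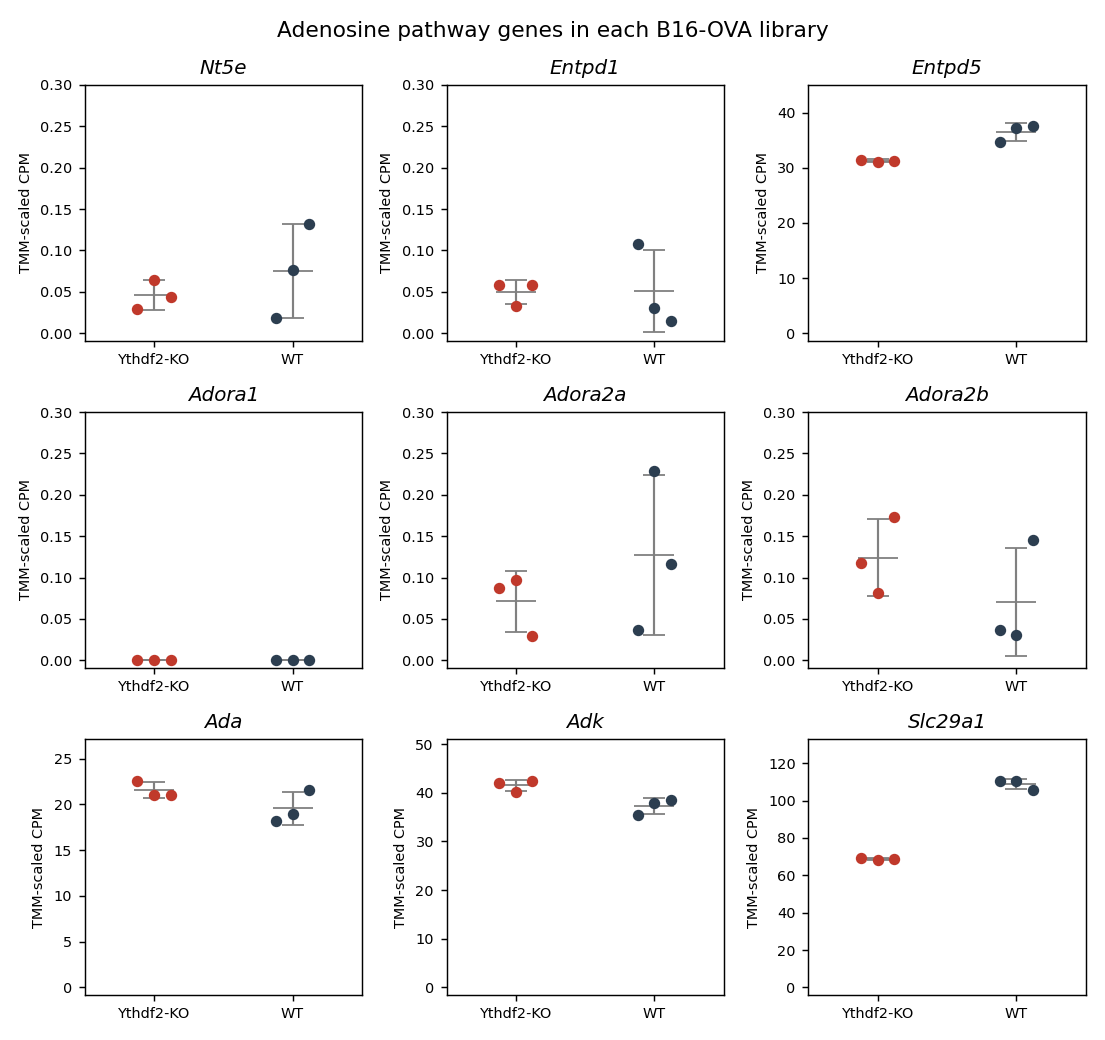
Level of each of the 9 genes as TMM-scaled CPM (linear axis, own scale in each panel) in the 3 Ythdf2-KO and the 3 WT libraries. Points are libraries, and grey bars show the mean and SD. Slc29a1, Entpd5 and Adk separate the genotypes, Ada overlaps, and the other 5 genes lie at or below 0.229 CPM in all libraries.

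Nt5e encodes CD73, the enzyme that makes adenosine from extracellular AMP. It had 2, 4 and 3 counts in Ythdf2-KO replicates 1 to 3, against 1, 5 and 9 counts in WT replicates 1 to 3. The pooled levels were 0.0451 CPM in Ythdf2-KO (95% exact Poisson interval 0.0206 to 0.0857) and 0.0791 CPM in WT (0.0443 to 0.131). The libraries of the genotypes overlapped, and the ratio of 0.571 had an interval of 0.220 to 1.39. These intervals cover counting error only, and they are too narrow if both reads of a pair added a count each.

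Entpd1 encodes CD39, which is best known from leukocytes and endothelium. It had 4, 2 and 4 counts in Ythdf2-KO, against 6, 2 and 1 counts in WT. The genotypes overlapped, with pooled levels of 0.0502 CPM in Ythdf2-KO and 0.0475 CPM in WT and a ratio of 1.06 (95% counting interval 0.386 to 2.94). The pan-leukocyte gene Ptprc had 2, 0 and 74 counts in Ythdf2-KO and 2, 6 and 5 counts in WT. In the Ythdf2-KO library with 74 Ptprc counts, Entpd1 had 4 counts and Adora2a had 2. What leukocyte RNA adds to these counts was not tested.

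The receptors were as scarce. Adora1, which encodes a receptor that lowers cAMP, had no count in any of the 6 libraries. The 95% exact Poisson interval on the pooled counts reached up to 0.0185 CPM in Ythdf2-KO and 0.0195 CPM in WT. Adora2a encodes a receptor that stimulates cAMP synthesis and is the main adenosine receptor of T cells. It had 6, 6 and 2 counts in Ythdf2-KO, against 2, 15 and 8 counts in WT, with a ratio of 0.533 (95% counting interval 0.256 to 1.06). Adora2b encodes a receptor that also raises cAMP but needs more adenosine. It had 8, 5 and 12 counts in Ythdf2-KO, against 2, 2 and 10 counts in WT, with a ratio of 1.70 (95% counting interval 0.849 to 3.53). For both genes the genotypes overlapped.

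Fitted without a filter on low counts, Nt5e, Entpd1, Adora2a and Adora2b did not pass edgeR's quasi-likelihood test (adjusted p = 0.680, 0.999, 0.497 and 0.529). Their smallest unadjusted p was 0.291 in edgeR and 0.380 in DESeq2. The SEs of their log2 fold changes in that edgeR fit were 1.03, 1.12, 0.785 and 0.786, in the same order. Differences within the counting intervals, and some beyond them, could thus go undetected at this depth.

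Promoters rich in CG dinucleotides are a feature of most broadly active genes and of many developmental ones. RefSeq promoter windows of GRCm38.p6, from 250 bases before to 50 after a transcription start, were used for the 9 genes except Adora2a. Among the near-silent genes, Nt5e had 23 CG, Adora2b 27, Adora1 26 and 24 in its windows, and Entpd1 23 and 10. Among the expressed genes, Ada had 20 CG, Entpd5 33, Adk 33 and 21, and Slc29a1, with 8 annotated starts, 3 to 30. The median over 32851 windows was 7. The CG-richest window of each gene stood at the 75.2nd to 92.3rd percentile of these windows, a comparison of the richest of several windows with single ones for the genes with more than 1 start. The windows of Nt5e, Adora2b and, as an expressed gene for comparison, Ada are shown from 5′ to 3′ on the gene's strand with every CG in capitals. They lie at chr9:88327359-88327658 on the plus strand with 23 CG, chr11:62248734-62249033 on the plus strand with 27 CG, and chr2:163750190-163750489 on the minus strand with 20 CG.
Nt5e: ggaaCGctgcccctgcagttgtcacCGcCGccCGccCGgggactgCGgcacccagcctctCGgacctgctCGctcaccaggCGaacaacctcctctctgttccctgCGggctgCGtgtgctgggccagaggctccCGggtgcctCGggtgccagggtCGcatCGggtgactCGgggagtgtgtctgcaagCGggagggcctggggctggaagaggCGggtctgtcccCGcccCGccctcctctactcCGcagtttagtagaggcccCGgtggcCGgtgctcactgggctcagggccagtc
Adora2b: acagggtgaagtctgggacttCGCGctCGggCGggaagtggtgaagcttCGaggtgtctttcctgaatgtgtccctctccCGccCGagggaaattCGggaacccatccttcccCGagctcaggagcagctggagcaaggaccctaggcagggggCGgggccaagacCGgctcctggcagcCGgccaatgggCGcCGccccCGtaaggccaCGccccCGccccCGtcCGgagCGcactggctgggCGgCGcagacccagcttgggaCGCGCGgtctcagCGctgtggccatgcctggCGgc
Ada: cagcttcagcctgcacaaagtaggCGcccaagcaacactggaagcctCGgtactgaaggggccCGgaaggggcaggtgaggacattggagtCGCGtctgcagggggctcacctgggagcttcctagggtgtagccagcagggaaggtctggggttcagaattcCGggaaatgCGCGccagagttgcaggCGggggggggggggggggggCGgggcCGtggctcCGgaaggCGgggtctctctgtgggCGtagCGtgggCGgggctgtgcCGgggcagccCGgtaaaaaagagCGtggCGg
By the richest window of each gene, Ada held fewer CG than each near-silent gene with a window, and Slc29a1, Entpd5 and Adk held more. For Slc29a1, Adk and Entpd1, this order rests on taking the richest of several windows, as their poorest held 3, 21 and 10 CG. DNA methylation was not measured here.

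Slc29a1 showed the largest difference among the 4 tested genes. It encodes ENT1, the equilibrative transporter through which adenosine passes the plasma membrane in either direction. It stood at 69.3, 68.3 and 68.9 CPM in Ythdf2-KO, against 111, 110.5 and 106 CPM in WT. All Ythdf2-KO libraries lay below all WT libraries, as was the case in one direction or the other for 55.9% of the genes tested. Slc29a1 fell 1.58-fold, with a log2 fold change of -0.66 ± 0.029 (SE, n = 3 per genotype; edgeR adjusted p = 7.00e-24).

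Adk encodes adenosine kinase, which returns adenosine to AMP inside the cell and so keeps the intracellular level low. It stood at 41.9, 40.2 and 42.5 CPM in Ythdf2-KO, against 35.5, 37.9 and 38.5 CPM in WT. Every Ythdf2-KO library was above every WT library, but the step was small: Adk rose 1.11-fold, a log2 fold change of 0.15 ± 0.041 (SE, n = 3 per genotype; edgeR adjusted p = 0.00140).

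Ada encodes adenosine deaminase, which converts adenosine to inosine. It stood at 22.6, 21.04 and 21.06 CPM in Ythdf2-KO, against 18.1, 19.0 and 21.5 CPM in WT. WT replicate 3 lay above 2 of the Ythdf2-KO libraries, so the genotypes overlapped. The log2 fold change of 0.14 ± 0.059 (SE, n = 3 per genotype) passed narrowly (edgeR adjusted p = 0.0468). The call was lost in 8 of 13 alternative settings, among them DESeq2 (adjusted p = 0.0624) and limma-voom (adjusted p = 0.0677). It was also lost on leaving out any one library except WT replicate 3, with edgeR adjusted p-values from 0.0556 to 0.241.

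Entpd5 belongs to the same enzyme family as CD39 but is known as an enzyme of the endoplasmic reticulum that hydrolyses UDP during glycoprotein folding. It stood at 31.5, 31.0 and 31.3 CPM in Ythdf2-KO, against 34.6, 37.3 and 37.6 CPM in WT. The genotypes did not overlap, and Entpd5 fell 1.17-fold, a log2 fold change of -0.22 ± 0.043 (SE, n = 3 per genotype; edgeR adjusted p = 2.26e-05).

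Set per kilobase of exon, so that genes can be compared, Slc29a1 was the highest of the 9, at 17.2 CPM per kb in Ythdf2-KO and 27.2 CPM per kb in WT. Ada followed at 10.8 and 9.77 CPM per kb in Ythdf2-KO and WT. Entpd5 was at 5.18 CPM per kb in Ythdf2-KO and 6.04 in WT, and Adk, its neighbour in this order, at 4.87 in Ythdf2-KO and 4.37 in WT. Over all libraries, these 4 genes stood at the 85.4th, 70.6th, 57.3rd and 53.4th percentile of 16729 tested genes with a known exon length. The receptor genes Adora2b and Adora2a came next among the 9, at 0.0671 and 0.0233 CPM per kb in Ythdf2-KO and 0.0384 and 0.0416 in WT, 2 neighbours whose order turned round between the genotypes and rests on few counts. Entpd1 and Nt5e followed at 0.00888 and 0.00532 CPM per kb in Ythdf2-KO and 0.00915 and 0.00875 in WT.

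**Figure D2:**
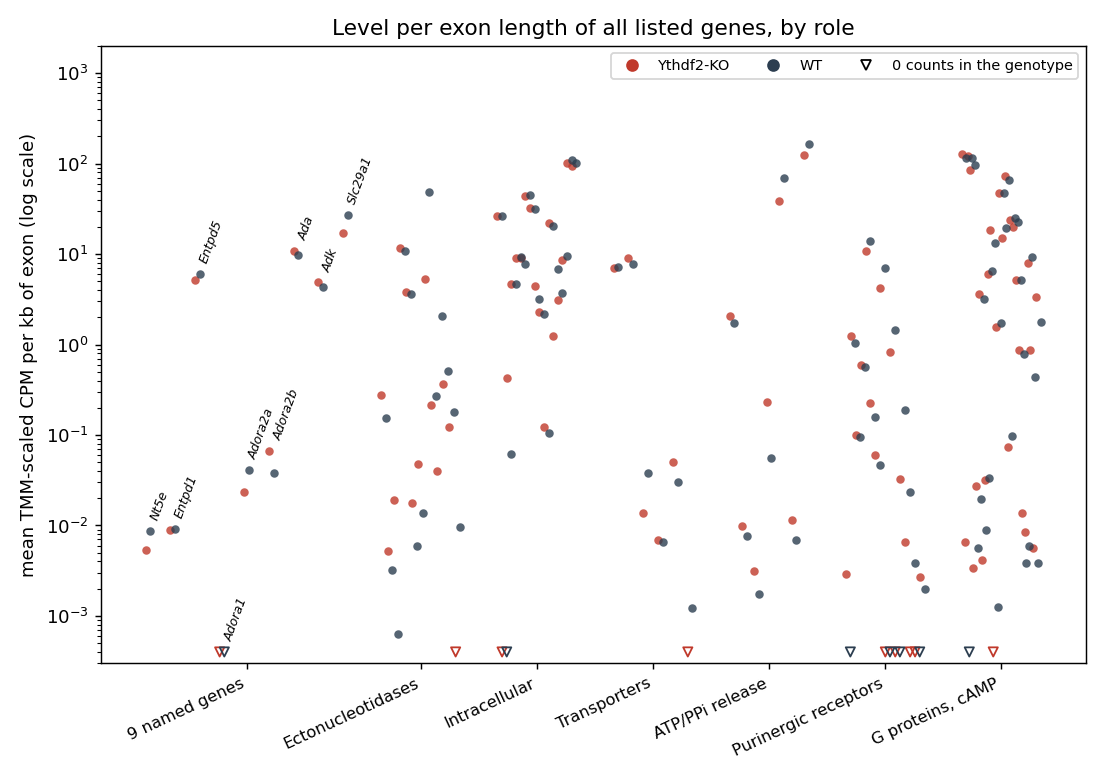
Mean level per kilobase of exon (log axis) in Ythdf2-KO and WT for all 9 genes, named, and for 86 other listed genes grouped by role. Triangles on the bottom line mark genes with no count in that genotype. Nt5e, Entpd1 and the adenosine receptor genes lie well below Slc29a1, Ada, Entpd5 and Adk.

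As YTHDF2 reads m6A, the transcripts were searched for GGACT, one of the sequences in which m6A is commonly placed, on the transcript strand only and as the only motif. In the longest complete coding transcript of each gene in GENCODE M21 (GRCm38), all 9 genes held it, from 1 site in Adk and Adora2a to 8 in Entpd1. Of 21745 such transcripts, 87.7% hold it, at a median of 1.01 per kb. Slc29a1 had 2 sites in 2216 bases, both in the 3′ UTR, and Adk had 1, also there. Entpd5 had 7 sites, 4 of them in coding sequence, and Ada 2. The site nearest the stop codon of each of the 4 tested genes is shown with 10 bases on either side, the motif in capitals.
Slc29a1: gctttcctctGGACTgtgcttcgcc
Adk: gacatctgatGGACTtggggcagct
Ada: aggtcccaggGGACTtgacaatcat
Entpd5: aggaaggcgtGGACTcagagacatt
Counted from the first base of the stop codon, these sites start 115 bases downstream in Slc29a1, 523 in Adk, 169 in Ada and 60 in Entpd5, all in the 3′ UTR. Per kb of transcript, Slc29a1 had 0.903 sites and Entpd5 1.408, the genes that fell, and Ada had 1.185 and Adk 0.55, the genes that were higher. A match is a run of letters and not a measured m6A site.

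Other genes that act on the same nucleotides were described from lists of known members. Of 13 further enzymes that can act on extracellular nucleotides, 9 were tested, with 3 higher and 3 lower in Ythdf2-KO. The median of their log2 fold changes was -0.36. Among all genes tested, 24.1% were higher and 25.8% lower. Alpl encodes tissue-nonspecific alkaline phosphatase, which can take extracellular AMP to adenosine as CD73 does. Alpl had 24, 5 and 4 counts in Ythdf2-KO (0.351, 0.0810 and 0.0577 CPM), against 467, 576 and 539 counts in WT (8.41, 8.80 and 7.87 CPM). It was low in all Ythdf2-KO libraries and fell 49.9-fold, a log2 fold change of -5.64 ± 0.31 (SE, n = 3 per genotype; edgeR adjusted p = 6.58e-08). Without Ythdf2-KO replicate 1, which held most of that genotype's counts, it was -6.89, and without Ythdf2-KO replicate 3 it was -5.22. Enpp2 encodes autotaxin, an enzyme of this family known mainly for making the lipid mediator lysophosphatidic acid. It fell to 30.9 ± 0.935 CPM in Ythdf2-KO, against 283 ± 4.53 CPM in WT (SD, n = 3 each), 9.17-fold (edgeR adjusted p = 3.27e-51).

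Enpp1, which encodes a surface enzyme that cuts ATP to AMP and pyrophosphate, rose from a low base: 33, 39 and 24 counts in Ythdf2-KO, against 7, 4 and 16 in WT (log2 fold change 1.76 ± 0.46, SE; edgeR adjusted p = 0.00113). On leaving out 1 library, its log2 fold change ran from 1.41 without WT replicate 2 to 2.38 without WT replicate 3. The other calls, named after their values were seen, were Acpp, the prostatic acid phosphatase gene that was listed under its newer name Acp3, which fell by 0.46 on the log2 scale, and Entpd2 and Entpd6, which rose by 0.81 and 0.13. Entpd2, the gene of a surface ATPase, stood at 0.582 ± 0.130 CPM in Ythdf2-KO and 0.330 ± 0.0306 CPM in WT (SD, n = 3 each), and passed narrowly (edgeR adjusted p = 0.0490). The call for Entpd2 was lost by DESeq2 (adjusted p = 0.0715) and limma-voom (adjusted p = 0.0594), and on leaving out any one library except Ythdf2-KO replicate 2 (edgeR adjusted p = 0.0636 to 0.190). That for Entpd6 was lost without WT replicate 3 (edgeR adjusted p = 0.0745).

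Inside the cell, adenosine arises from AMP and from S-adenosylhomocysteine. Of 17 genes of these routes and of purine salvage, 16 were tested, with 4 higher and 5 lower. The median of their log2 fold changes was 0.0027. The shares over all genes tested were 24.1% higher and 25.8% lower. Ampd3 encodes an AMP deaminase, which diverts AMP to IMP and away from adenosine. It stood at 6.84, 7.79 and 6.48 CPM in Ythdf2-KO, against 38.9, 38.5 and 36.7 CPM in WT, and fell 5.42-fold (log2 fold change -2.44 ± 0.061, SE, n = 3 per genotype; edgeR adjusted p = 2.15e-33). Its paralog Ampd2 rose by 0.13 on the log2 scale to 116 ± 1.23 CPM in Ythdf2-KO, against 106 ± 3.06 CPM in WT (SD, n = 3 each). Nt5c1b encodes a cytosolic 5′-nucleotidase that makes adenosine from AMP. It had 77, 65 and 93 counts in Ythdf2-KO, against 8, 13 and 11 in WT, and rose 6.91-fold to 1.17 ± 0.151 CPM in Ythdf2-KO, against 0.168 ± 0.0280 CPM in WT (SD, n = 3 each; edgeR adjusted p = 5.14e-10).

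Ahcyl2, which encodes a relative of S-adenosylhomocysteine hydrolase known mainly as a regulator of ion transport, rose 1.40-fold to 81.2 ± 1.57 CPM in Ythdf2-KO, against 57.9 ± 1.10 CPM in WT (SD, n = 3 each). Ahcy, the hydrolase itself, was at 124 ± 2.87 CPM in Ythdf2-KO and 125 ± 1.73 CPM in WT, with a 95% interval of the log2 fold change from -0.055 to 0.050. Nt5c2, the gene of another cytosolic nucleotidase, was at 51.7 ± 2.13 CPM in Ythdf2-KO and 51.4 ± 1.195 CPM in WT, with an interval from -0.066 to 0.082. Neither passed the test.

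Of 6 nucleoside transporter genes besides Slc29a1, 3 were tested and 1 was called, where 49.9% of all genes tested were called. Slc29a3, which encodes the intracellular transporter ENT3, rose to 52.7 ± 0.704 CPM in Ythdf2-KO, against 45.9 ± 1.80 CPM in WT (SD, n = 3 each; edgeR adjusted p = 1.03e-05). Slc29a2, which encodes the surface transporter ENT2, was at 20.997 ± 0.338 CPM in Ythdf2-KO and 21.7 ± 0.633 CPM in WT and did not pass (edgeR adjusted p = 0.473). Slc28a2, which encodes a sodium-coupled transporter, had 10 to 17 counts in Ythdf2-KO and 6 to 12 in WT and did not pass either (edgeR adjusted p = 0.261). The fall of Slc29a1 thus stood beside a rise of Slc29a3 and no call for Slc29a2. Whether the transporters differ from each other in their response was not tested.

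Upstream, 4 of 7 genes linked to the release of ATP or pyrophosphate were tested, and all 4 were called, 2 in each direction, where 49.9% of all genes tested were called (median of the log2 fold changes -0.077). Gja1, which encodes the gap junction and hemichannel protein connexin 43, stood at 394, 391 and 397 CPM in Ythdf2-KO, against 695, 723 and 710 CPM in WT, and fell 1.80-fold (edgeR adjusted p = 1.64e-33). Ank, which encodes a membrane protein of ATP and pyrophosphate export, fell 1.31-fold to 449 ± 9.05 CPM in Ythdf2-KO, against 589 ± 13.5 CPM in WT (SD, n = 3 each; edgeR adjusted p = 3.03e-20). Slc17a9, which encodes the vesicular nucleotide transporter, had 45, 46 and 57 counts in Ythdf2-KO, against 9, 8 and 17 in WT, and rose 4.12-fold (edgeR adjusted p = 9.40e-06). The fourth call was Panx1, the gene of the ATP-permeable channel pannexin 1, which rose by 0.24 on the log2 scale.

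Of 16 further purinergic receptor genes, Adora3 included, 9 were tested, 4 fell and 0 rose, while the median log2 fold change was 0.046. Over all genes tested, 25.8% were lower and 24.1% higher. No member was higher at an unadjusted p under 0.05 in edgeR, nor at an adjusted p under 0.05 by DESeq2 or limma-voom. Without WT replicate 2, P2rx1, the gene of a further ATP-gated channel, was called higher (log2 fold change 0.38, edgeR adjusted p = 0.0367), against 0.26 and an adjusted p of 0.125 with all libraries. P2rx7, which encodes an ATP-gated channel linked to inflammasome activation, stood at 24.4, 26.3 and 25.3 CPM in Ythdf2-KO, against 40.5, 41.1 and 42.6 CPM in WT, and fell 1.64-fold (edgeR adjusted p = 1.53e-18). P2rx4, the gene of a related channel and per kb of exon the highest of these receptor genes, fell 1.28-fold to 75.7 ± 0.463 CPM in Ythdf2-KO, against 97.0 ± 0.590 CPM in WT (SD, n = 3 each; edgeR adjusted p = 8.00e-15). P2ry2, the gene of a receptor for ATP and UTP, fell 1.74-fold to 3.27 ± 0.0458 CPM in Ythdf2-KO, against 5.70 ± 0.422 CPM in WT (SD, n = 3 each). P2ry6, the gene of a UDP receptor, had 10, 5 and 4 counts in Ythdf2-KO, against 19, 44 and 43 in WT, and fell 5.69-fold (edgeR adjusted p = 1.29e-05). Adora3, the remaining adenosine receptor gene, had 2 counts in 1 Ythdf2-KO library and none in the others or in WT.

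Adenosine receptors act through G proteins and cAMP. Of 27 genes of this machinery, 20 were tested, 8 were higher and 6 lower, and the median of their log2 fold changes was -0.0099. Across all genes tested, 24.1% were higher and 25.8% lower. Pde4d encodes a phosphodiesterase that degrades cAMP, and stood at 40.7, 39.7 and 39.1 CPM in Ythdf2-KO, against 21.5, 20.8 and 21.2 CPM in WT. It rose 1.88-fold (log2 fold change 0.91 ± 0.045, SE, n = 3 per genotype; edgeR adjusted p = 4.71e-22). Adcy7, which encodes an adenylyl cyclase, rose 1.38-fold to 124 ± 0.788 CPM in Ythdf2-KO, against 89.8 ± 2.49 CPM in WT (SD, n = 3 each; edgeR adjusted p = 2.16e-19). Prkacb, which encodes a catalytic subunit of the cAMP-dependent kinase, fell 1.29-fold to 132 ± 3.43 CPM in Ythdf2-KO, against 171 ± 1.499 CPM in WT (SD, n = 3 each; edgeR adjusted p = 5.85e-17). Pde3a, a further phosphodiesterase gene, had 11 to 12 counts in Ythdf2-KO and 1 to 4 in WT and passed (edgeR adjusted p = 0.0217), but not without WT replicate 2 (adjusted p = 0.124), Ythdf2-KO replicate 1 (adjusted p = 0.0604) or Ythdf2-KO replicate 2 (adjusted p = 0.0696), nor with no filter (adjusted p = 0.0639) or by DESeq2 (adjusted p = 0.0512).

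**Figure D3:**
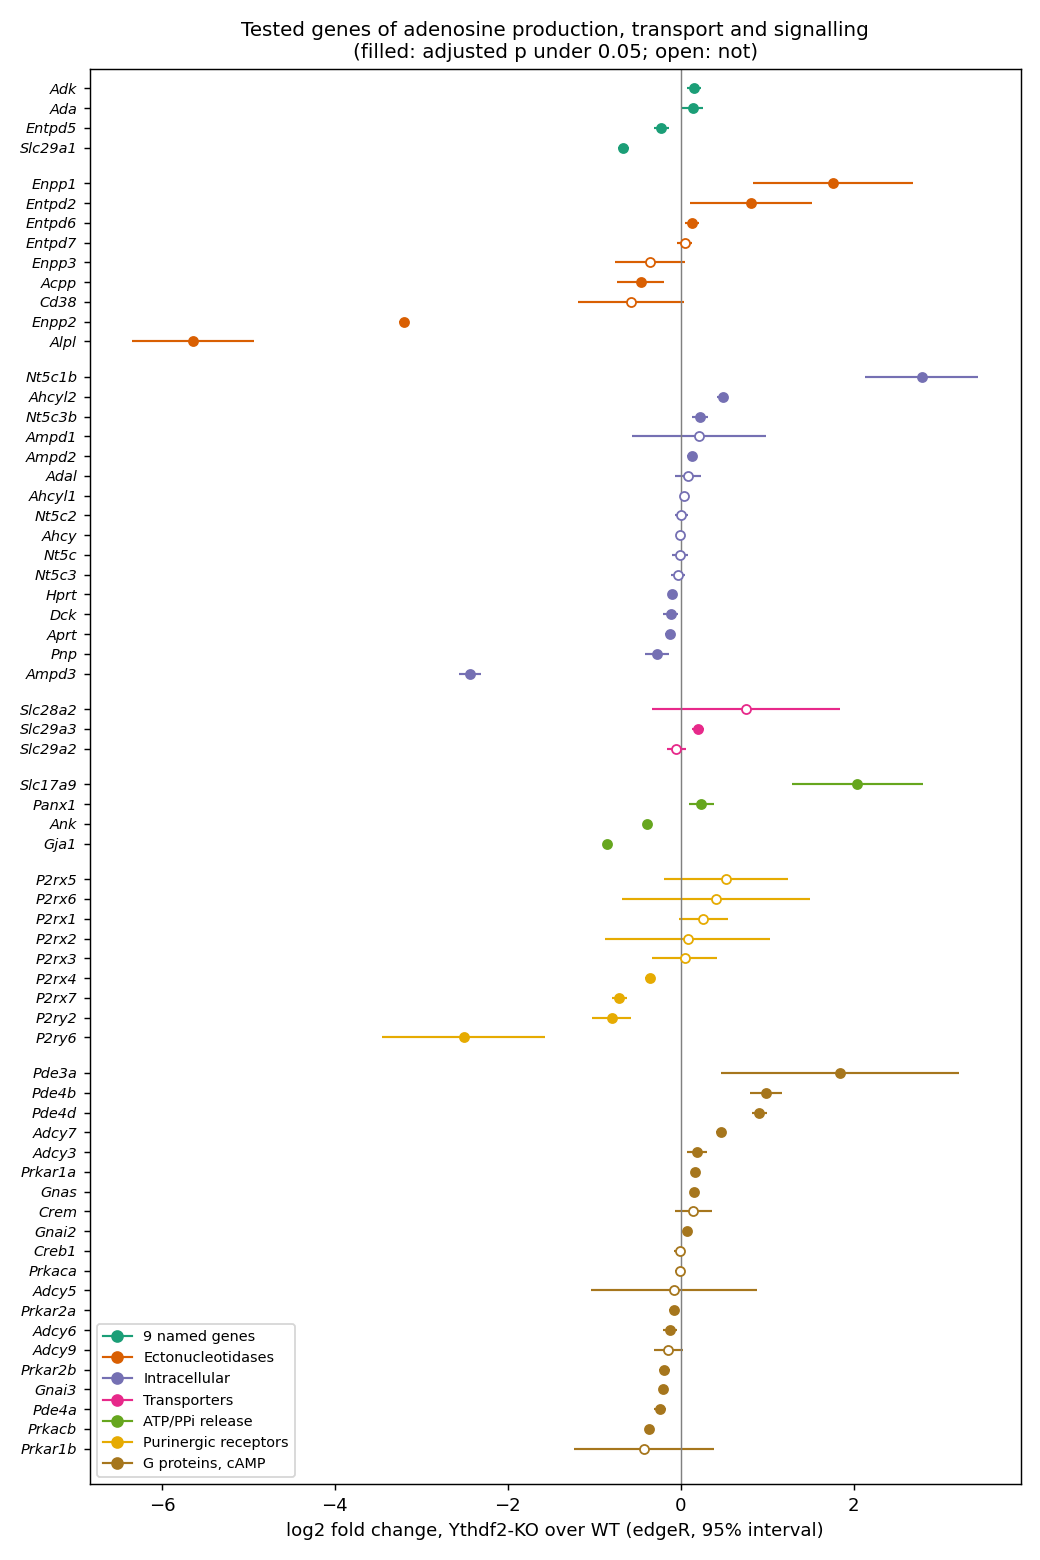
Log2 fold change of Ythdf2-KO over WT with its 95% interval (edgeR) for every tested gene of the 9 and of the 6 further lists, grouped by role. Filled points passed an adjusted p under 0.05 and open points did not. Most genes lie near 0, while Alpl (-5.64), Enpp2 (-3.20), P2ry6 (-2.51) and Ampd3 (-2.44) lie far to the left and Nt5c1b (2.79) and Slc17a9 (2.04) to the right.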

How the data were processed

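The deposited table holds whole-number counts per gene symbol for 3 Ythdf2-KO and 3 WT libraries, with no normalization by the authors. Per the submitters' processing notes, fastp 0.23.2, HISAT2 2.2.1 and featureCounts 2.0.6 were used with GRCm39. How strand, read pairs and multiply aligned reads were handled is not stated, so overlapping genes and near-identical copies, such as Entpd4 and Entpd4b or Pnp and Pnp2, can share or lose counts.

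Columns were matched to samples by the library codes in the labels. Genes were kept by edgeR's filterByExpr (minimum count 10), which left 17718, and scaled with TMM. The quasi-likelihood test with robust dispersions in edgeR 4.0.16 (R 4.3.3) compared the genotypes, and p-values were adjusted by Benjamini and Hochberg over all of these genes. On simulated counts, it recovered 66% of 1.2-fold and 90% of 1.5-fold changes (50 genes each), with 15 false calls across 17349 genes. Few genes were changed in that simulation, whereas 49.9% of the genes tested were called in the data. The adjustment of p-values depends on that share, so these rates may not carry over. Folds under 1.2, such as those of Ada, Adk and Entpd5, were not simulated. Levels are TMM-scaled CPM, or CPM per kb of merged GENCODE M21 exons joined by symbol. Intervals on pooled counts are exact Poisson and, for ratios, exact binomial, at 95%. Alternatives used limma 3.58.1, DESeq2 1.42.0, other scalings and filters, the replicate block and leaving out each library. Sequences come from RefSeq (GRCm38.p6) and GENCODE M21 (GRCm38), a build other than that of the counts; Adora2a had no promoter entry. Figures were drawn with matplotlib 3.10.9.

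The 9 genes, the gene lists and the tests were chosen with earlier results of these data known. Besides the 9 genes and Ythdf2, the text names from each list the 3 genes lowest in adjusted p and any called gene at least 2-fold apart; others are named to complete counts or were chosen after their values were seen. Replicate numbers did not pair the samples.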

Additional observations from a re-analysis of the deposited data

How the results depend on the processing

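Slc29a1, Entpd5 and Adk kept their direction and their call in all 13 alternatives, with log2 fold changes of -0.68 to -0.61, -0.25 to -0.17 and 0.13 to 0.21. The count of higher genes among the 9 was 1 in place of 2 with the replicate block, with DESeq2 and with limma-voom, and 1 to 2 on leaving out 1 library, through Ada alone. The log2 fold change of Ada was 0.14 with the replicate block (edgeR adjusted p = 0.0512), 0.15 with DESeq2, 0.14 with limma-voom and 0.094 to 0.22 on leaving out 1 library. A filter at a mean of 5 CPM left 2 calls among the further ectonucleotidases and 2 among the further purinergic receptors, because fewer genes were tested. Without WT replicate 2, 5 of those receptors were called, 4 lower and P2rx1 higher. Slc29a2, which was not called, turned to 0.0043 with upper-quartile scaling. That scaling raised the share of higher genes among all calls to 59.2%, against 48.3% with TMM; the causes of these changes were not tested. The replicate numbers share no stated source. Deviations of same-numbered samples correlated at 0.062, -0.077 and -0.13 over 10450 genes, and those of differently numbered samples at -0.087 to 0.15. The replicate block left 4132 genes higher and 4409 lower, against 4270 and 4569. By chi-square per degree of freedom, WT replicate 2 differed from WT replicates 1 and 3 by 14.6 and 12.9. WT replicates 1 and 3 differed by 4.22, and the Ythdf2-KO libraries differed from each other by 4.73 to 9.40. Depth limits Nt5e, Entpd1, Adora1, Adora2a and Adora2b, for which counting error alone spans several-fold.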

Other observations

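Some scarce nucleotidase genes took most of their counts from 1 library. Entpd4, the gene of a Golgi and lysosomal nucleotidase, had 0, 28 and 1 counts in Ythdf2-KO replicates 1 to 3, against 0, 1 and 0 counts in WT. Its near-identical copy Entpd4b had 3, 9 and 9 counts in Ythdf2-KO, against 4, 21 and 8 in WT. How reads that match both copies were counted is not stated, so these counts are uncertain. Entpd8 had 0, 0 and 10 counts in Ythdf2-KO, against 1, 2 and 0 in WT. The library with those 10 counts, Ythdf2-KO replicate 3, is the one with 74 counts of Ptprc, 8 of Cd3e and 22 of Cd4, where the other Ythdf2-KO libraries had at most 2, 0 and 8.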
